A study of Drosophila melanogaster with 78 samples.

Results

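The mitochondrial respiratory chain turns fuel into ATP. Complexes I and II pass electrons from NADH and succinate to ubiquinone, complex III hands them to cytochrome c, complex IV reduces oxygen, and complex V, the ATP synthase, uses the proton gradient that the others build. Complex II (succinate dehydrogenase) is also an enzyme of the tricarboxylic acid cycle and is made entirely of nuclear-encoded subunits, whereas complex V combines nuclear subunits with a few made inside the mitochondrion. Flight muscle of the fly is packed with mitochondria and is the classic tissue for high respiratory chain expression.

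The genes described here are nuclear genes of this chain, chosen by name: every transcript of the study's expression table whose gene name began with ND-, COX and a digit, UQCR-, Sdh followed by A, B, C or D, or ATPsyn. The rule found 8 genes with 19 transcripts, of 17393 gene names and 33570 transcripts in the table. Of these, 3 encode subunits of complex II (SdhA, SdhB and SdhC) and 5 subunits of complex V (ATPsynB, ATPsynCF6, ATPsynD, ATPsynbeta and ATPsyngamma, spelled with a hyphen in the table, as in ATPsyn-beta). No gene of complexes I, III or IV was found, because the table carried older names for them, such as ND75 and CoIV. By current symbols the same patterns name 87 genes, namely 40 of complex I, 7 of complex II, 9 of complex III, 16 of complex IV and 15 of complex V. The 79 that the rule did not choose are described beside the 8 as the wider chain, and the word chosen is kept for the 8.

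Female Drosophila melanogaster of 2 genotypes were compared: dilp 2-3,5 mutants, in which the genes of 3 insulin-like peptides are deleted, and wDah, the outbred white Dahomey strain into which the mutations had been crossed. Both carried Wolbachia. From each genotype, brain, thorax without gut, gut with Malpighian tubules, and fat body (the abdominal wall without gut and ovaries) were taken at days 10, 30 and 50 of age. Total RNA of the resulting 24 groups was sequenced as 72 libraries, 3 per group, and the table held 1 pooled value per transcript and group. In whole tissues, fewer cells of a type and less RNA per cell cannot be told apart.

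Levels are given as FPKM (fragments per kilobase of transcript at a set sequencing depth) summed over a gene's transcripts and scaled so that each group adds up to 1000000, which allows genes to be compared per length. The only error in the table was the 95% limit around each pooled transcript value, so no p-value, SD or n can be given. A difference is called past the limits only where those of a gene's main transcript did not overlap. The main transcript is the one with the highest mean FPKM over the 24 groups, and it need not lead in every group. Transcripts under 200 bases took 18.8 to 29.3% of the FPKM sum in the day 10 groups and 58.4 to 78.3% in the day 30 and 50 groups. Day 10 samples had also been produced separately from the later ones, so that age and batch cannot be told apart between day 10 and later days, and levels at day 10 are not compared with them. Within an age, a log2 ratio is given relative to the median of all genes in that comparison (centred), since scaling to the sum moved that median by −0.41 to 0.50 between genotypes, by −0.01 to 0.82 between ages and by −0.49 to 0.75 between tissues.

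The 3 deleted genes checked the genotype labels. In brain, where they are mainly made, Ilp2 was at 0.81, 0 and 0 in dilp 2-3,5 at days 10, 30 and 50 against 513, 45.2 and 26.5 in wDah, and Ilp3 and Ilp5 were likewise at 0.23 or less in every dilp 2-3,5 group and at 7.42 to 83.1 in wDah brain. All 5 neuronal markers were detected in the 6 brain groups, all 5 muscle markers in the 6 thorax groups, all 6 gut markers in the 6 gut groups, and 4 or 5 of 5 fat body markers in the fat body groups. Fat body markers also reached a summed level of 1954 to 31247 in brain and of 6655 to 49545 in thorax, against 7349 to 36495 in fat body itself. All 5 neuronal markers and 5 or 6 of 6 gut markers were also detected in the thorax groups, so detection alone does not tell the tissues apart. The summed level of 6 testis markers was at most 1.40 in any group.

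All 8 chosen genes were expressed in every group, and their median level stood at the 95.7th to 98.7th percentile of all gene names of its group. SdhC and ATPsynB, the complex II membrane anchor and a peripheral stalk subunit of complex V, lie on 3R:11208887-11209849 (minus strand) and 3L:9729999-9731224 (plus strand) of Drosophila genome Release 6, and no other annotated gene shares their exonic bases. The 250 bases before the start of each gene model are printed here as examples from either complex, because these windows hold no exon of another gene. They run in the direction of transcription, 5′ to 3′, were read from the RefSeq genome of Release 6, and are in lower case throughout because none of the motifs searched is present.
SdhC promoter, 3R:11209850-11210099: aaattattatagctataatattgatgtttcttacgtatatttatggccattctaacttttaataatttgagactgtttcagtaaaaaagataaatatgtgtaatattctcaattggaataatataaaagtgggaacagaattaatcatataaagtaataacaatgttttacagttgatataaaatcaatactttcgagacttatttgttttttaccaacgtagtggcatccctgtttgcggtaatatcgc
ATPsynB promoter, 3L:9729749-9729998: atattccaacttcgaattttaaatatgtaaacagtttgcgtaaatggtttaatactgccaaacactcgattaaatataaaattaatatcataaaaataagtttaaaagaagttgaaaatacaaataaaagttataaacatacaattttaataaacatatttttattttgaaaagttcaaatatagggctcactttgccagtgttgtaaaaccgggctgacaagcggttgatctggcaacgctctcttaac
Both windows were rich in A and T, at 74.0% for SdhC and 72.4% for ATPsynB. The DRE (TATCGATA, a palindrome bound by DREF), the core of an ETS site (CCGGAA, searched on both strands) and the E-box CACGTG (a palindrome) were looked for in the same window of each gene. The DRE was in 0 of the 8 windows, in 11.1% of the 72 windows of detected chain genes and in 7.99% of all 13968 windows. The ETS core was in 1 of the 8, that of SdhA, and in 4.17% of chain windows and 5.33% of all windows. The E-box was in 0 of the 8, in 2.78% of chain windows and in 2.86% of all windows. No motif of the 3 contains another, and no match says only that these letters are not there.

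Complex II was represented by its catalytic and anchoring parts. SdhA, the flavoprotein that oxidises succinate, lies on 2R:19391863-19395971 (minus strand) and had the lowest mean level over the 24 groups of the 3 complex II genes, 91.1. In thorax it stood at 701, 93.9 and 73.9 at days 10, 30 and 50 in dilp 2-3,5, against 407, 106 and 73.7 in wDah. The other tissues had 42.2 to 129 at day 10 and 6.37 to 32.9 later, with fat body below brain and gut in 6 of 6 pairs of genotype and age. Its exons overlap those of CG11257 on the opposite strand, and reads of the pair cannot be told apart because strandedness of the libraries was not stated.

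SdhB, the iron–sulfur subunit that carries electrons from the flavin, lies on 2R:6807626-6809172 (plus strand) with 1 transcript in the table, and overlaps CG15237 on the opposite strand. Its thorax levels were 759, 203 and 178 at days 10, 30 and 50 in dilp 2-3,5 and 481, 248 and 171 in wDah. Outside thorax the level was 38.8 to 84.4 at day 10 and 9.28 to 39.0 later, so thorax did not overlap the other tissues in either set. SdhC, which anchors the complex in the inner membrane, was the most abundant of the 3, with a mean level of 231. Its thorax levels were 1172, 316 and 355 in dilp 2-3,5 and 917, 360.4 and 317 in wDah, with 167 to 280.3 in the other tissues at day 10 and 35.5 to 124 later.

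Of the complex V genes, ATPsynbeta, the catalytic subunit of the F1 head, was the most abundant of all 8, with a mean level of 661. It lies on 4:1031484-1034917 (plus strand) and overlaps CG11076 on the opposite strand. It reached 2448, 582 and 743 in dilp 2-3,5 thorax and 1814, 636 and 592 in wDah thorax. Other tissues had 839 to 1138 at day 10 and 114.6 to 446 later. ATPsyngamma, the central stalk that turns inside the head (3R:29747704-29749163, minus strand), had the lowest mean level of the 5, 136. Its thorax levels were 534, 94.5 and 117 in dilp 2-3,5 and 334, 103 and 104 in wDah. Gut came nearest to them at day 50, with ATPsyngamma at 85.2 in dilp 2-3,5 gut and at 81.3 in wDah gut.

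The peripheral stalk holds the head of the ATP synthase still while the rotor turns, and ATPsynB, ATPsynD and ATPsynCF6 encode parts of it. ATPsynB stood at 897, 269.5 and 287 in dilp 2-3,5 thorax and at 634, 293 and 274 in wDah thorax, with 278 to 373 elsewhere at day 10 and 65.5 to 192 later. ATPsynD (3R:19095000-19096271, plus strand) stood at 798, 171 and 174 in dilp 2-3,5 thorax and at 503, 212 and 209.7 in wDah thorax. ATPsynCF6 (3R:23355220-23356064, minus strand) was at 756, 110.1 and 112 in dilp 2-3,5 thorax and at 467, 137 and 141 in wDah thorax. Scaled to the sum, thorax was thus the highest tissue for every one of the 8 genes in 6 of 6 pairs of genotype and age. Brain was the lowest tissue for ATPsynCF6, ATPsynD and ATPsyngamma in 6 of 6, and gut was never the lowest for any of the 8. These orders rest on the scaling and were not counted on other scales. In wDah at day 50 the FPKM sum was 1943856 in thorax and 3620926 in gut, so FPKM as deposited need not rank the tissues alike.

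The 8 profiles ran alongside each other. Over the 24 groups, Pearson's r of a gene's log2 level, relative to the median gene of each group and taken against the mean profile of the other 7, was between 0.81 for ATPsyngamma and 0.96 for SdhC. The closest pair was ATPsynCF6 and ATPsynD (r = 0.97) and the least close SdhB and ATPsyngamma (r = 0.57). These values describe 24 points that share tissue, batch and libraries, and no test was made of them.

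The question of where these genes are most active was put to wDah, as thorax over the mean of brain, gut and fat body at each age. All 8 genes were higher in thorax at all 3 ages, whether scaled to the sum or centred, and the complex II genes had the highest ratios. SdhB was at 481 in thorax at day 10 against a mean of 65.4 in the other tissues, a centred ratio of 10.3-fold. At day 30 its levels were 248 in thorax and 16.4 in the others (10.4-fold), and at day 50 they were 171 in thorax and 20.1 in the others (5.03-fold). The 95% limits of SdhB, 370.2 to 591 in wDah thorax at day 10, lay above those of the other tissues, which reached at most 95.6 in brain. SdhA was a centred 6.31-, 5.48- and 2.76-fold higher at days 10, 30 and 50, and SdhC 5.66-, 4.19- and 3.10-fold. The limits of SdhB and SdhC were above those of each of the other tissues at 3 of 3 ages, with the limits scaled and as deposited alike, and those of SdhA at day 10 only. At days 30 and 50, over both genotypes, the main SdhA transcript held 23.5 to 38.6% of the gene in thorax. In gut it held 47.8 to 62.8%, so the later SdhA limits do not stand for the whole gene.

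The 5 complex V genes were higher in thorax by smaller ratios. ATPsynD had centred log2 ratios of 1.81, 1.48 and 0.97 at days 10, 30 and 50, and ATPsynCF6 of 1.81, 1.29 and 0.77. ATPsynB had 1.35, 0.80 and 0.45, and the catalytic ATPsynbeta 1.23, 0.78 and 0.44. ATPsyngamma had the lowest ratios of the 8 at each age, 1.04, 0.49 and 0.13, and at day 50 its levels of 104 in thorax and 56.2 in the others amounted to a centred 1.10-fold. The limits of ATPsynbeta and ATPsyngamma overlapped those of another tissue at 3 of 3 ages. For ATPsyngamma these are limits of a transcript with 43.9 to 71.4% of the gene in thorax at days 30 and 50, over both genotypes. For ATPsynCF6 they were apart at 3 of 3 ages with scaled limits but at 1 of 3 with the limits as deposited, and for ATPsynB at 2 of 3 and at 0 of 3.

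The median centred log2 ratio of the 8 was 1.81 at day 10, 1.39 at day 30 and 0.87 at day 50, and the sum-scaled medians were 1.32, 1.92 and 1.62. At day 10 all 8 were at least 1.5-fold higher in thorax, against 22.9% of all genes; at day 30 it was 7 of 8 against 22.3%, and at day 50 5 of 8 against 20.01%. Limits lay above those of the other tissues for 6 of 8 at day 10 against 4.06% of all genes. For day 30 the counts were 4 of 8 against 10.5%, and for day 50 3 of 8 against 16.7%. The 5 muscle markers had a summed level of 531 to 1806 in the thorax groups and of at most 206 elsewhere, and their part in the ratios was not tested.

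**Figure D1:**
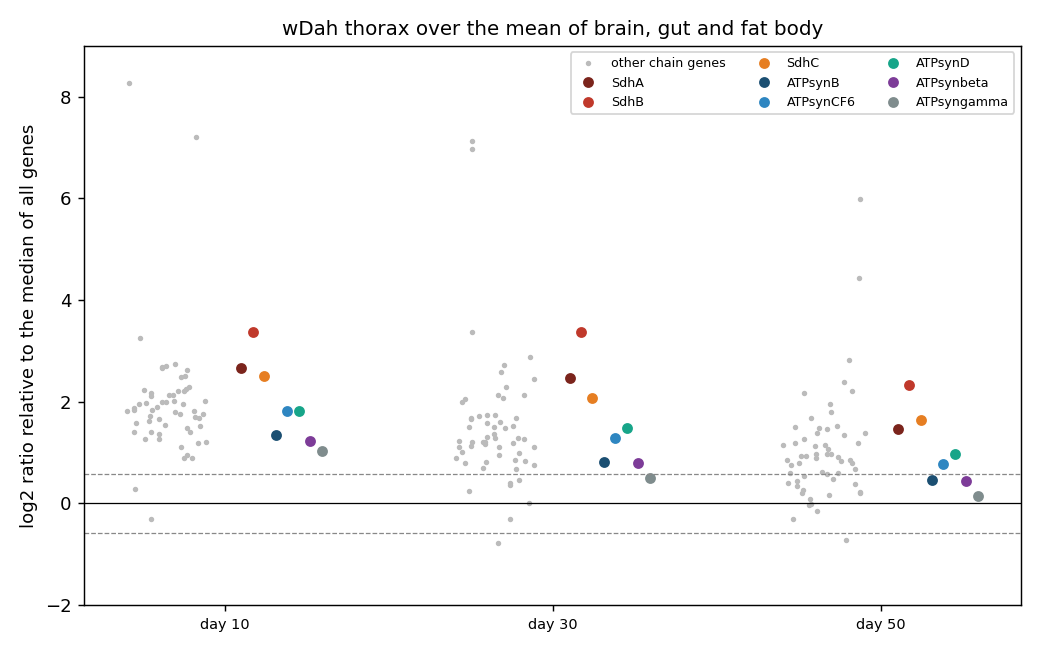
Centred log2 ratio of thorax over the mean of brain, gut and fat body in wDah (vertical) at days 10, 30 and 50 (horizontal); coloured points are the 8 genes, grey points the other chain genes, and dashed lines 1.5-fold. SdhA, SdhB and SdhC lie above ATPsynB, ATPsynbeta and ATPsyngamma at each age, and the 2 grey points furthest up are COX7AL2 and ND-B8.

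The wider chain had like ratios. Of the 58 other chain genes above the minimum level, 56 were at least 1.5-fold higher in thorax at day 10, 51 at day 30 and 40 at day 50, with median centred log2 ratios of 1.84, 1.27 and 0.90. The genes furthest from the rest included paralogs. The authors' estimation could have split shared reads between copies, which was not tested. COX7AL2, a gene of the complex IV subunit 7A family, was at 2037, 1030 and 746 in wDah thorax at days 10, 30 and 50 against means of 19.1, 5.53 and 6.93 in the other tissues. Its paralog COX7A was at 118, 71.0 and 90.7 in thorax and at 137, 84.6 and 89.5 elsewhere, with centred log2 ratios of 0.27, −0.79 and −0.73. COX7A was the 1 of the other 58 chain genes that was at least 1.5-fold lower in thorax at days 30 and 50, against 23.1% and 22.05% of all genes. ND-B8, a complex I subunit gene, was at 120, 28.5 and 5.58 in thorax and at 0.44, 0.04 and 0.06 elsewhere. UQCR-11L had the lowest ratio at day 10 and the next lowest after COX7A later, with centred log2 ratios of −0.31, −0.31 and −0.32 at days 10, 30 and 50. By group, 63 of 72 detected chain genes, the 8 included, had their highest sum-scaled level in dilp 2-3,5 thorax at day 10. That count spans the separately produced samples, in which short transcripts took less of the FPKM sum. It was not set beside the share of all genes and is not read as a trait of the chain.

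A further 15 of the 87 chain genes stayed under a level of 1 in all 24 groups, none of them among the 8. They were ND-20L, ND-24L, ND-49L, ND-51L2, ND-B14.5AL, SdhBL, SdhCL, UQCR-14L, UQCR-6.4L, COX4L, COX6AL2, COX6CL, COX7AL, ATPsynGL and ATPsynbetaL, whose symbols mark each of them as a "like" copy of a chain gene.

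The balance between the chosen genes of the 2 complexes also differed by tissue, and a ratio within a group does not depend on the scaling. The summed level of SdhA, SdhB and SdhC divided by that of the 5 ATPsyn genes was 0.484, 0.500 and 0.423 in dilp 2-3,5 thorax at days 10, 30 and 50, and 0.481, 0.518 and 0.425 in wDah thorax. In brain it was 0.246, 0.235 and 0.244 in dilp 2-3,5 and 0.221, 0.214 and 0.221 in wDah. The gut values lay close to those of brain, at 0.224, 0.211 and 0.220 in dilp 2-3,5 and 0.206, 0.201 and 0.202 in wDah. Fat body had the lowest ratios, 0.142, 0.132 and 0.142 in dilp 2-3,5 and 0.136, 0.112 and 0.126 in wDah. The ranges of thorax, of brain and gut, and of fat body did not overlap over the 6 groups of each tissue, whereas those of brain and gut did. Between the genotypes, the ratio was higher in dilp 2-3,5 in 10 of 12 comparisons, among them 9 of 9 in brain, gut and fat body, by margins for which the table gives no error. No like count was made for other sets of genes. With the 7 complex II and 15 complex V genes that the name patterns find by current symbol, fat body at day 10 alone of these 9 turned. The summed levels there were 283 and 4174 in dilp 2-3,5 and 321 and 4661 in wDah.

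The genotypes were then compared within each tissue and age. In none of the 12 comparisons of dilp 2-3,5 with wDah did a chosen gene pass 1.5-fold after centring, that is in 0 of 96 values, and no 95% limits were apart, against 3.38% of all genes over the 12 comparisons. The single values ran from −0.51 (SdhA in fat body at day 50) to 0.55 (SdhA in thorax at day 10). The median over the 8 genes lay between −0.25 and 0.43. In the background, the share of all genes past 1.5-fold in either direction at days 10, 30 and 50 was 10.8%, 7.55% and 11.3% in brain, 14.5%, 8.60% and 11.5% in thorax, 11.5%, 12.2% and 13.2% in gut, and 21.7%, 12.4% and 14.1% in fat body.

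In thorax at day 10 all 8 genes were at higher levels in dilp 2-3,5, with a centred median of 0.43 and a sum-scaled median of 0.66. SdhA had the highest ratio (0.55), with a level of 701 in dilp 2-3,5 against 407 in wDah, and ATPsynCF6 came next (0.46), with 756 in dilp 2-3,5 against 467 in wDah. Scaled to the sum alone, 5 of the 8 were at least 1.5-fold higher, against 13.98% of all genes. At day 30 the order was turned, with all 8 below 0 and a median of −0.09, and at day 50 6 of 8 were above 0 with a median of 0.21. No gene held 1 direction at all 3 ages in thorax. The summed muscle markers were 1806, 699 and 1383 in dilp 2-3,5 thorax at days 10, 30 and 50 and 925, 549.9 and 531 in wDah thorax, with 5 of 5 detected in each group. The gut markers summed to 569.6, 182 and 298 in dilp 2-3,5 thorax and to 1821, 433 and 742 in wDah thorax, with 5 or 6 of 6 detected. The part of either list in these values was not tested.

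In brain the centred median was −0.09, −0.16 and −0.16 at days 10, 30 and 50, while the sum-scaled median was 0.01, −0.23 and 0.35, so that the direction at days 10 and 50 depended on the scaling. After centring, 6 genes were lower in dilp 2-3,5 at all 3 ages. ATPsyngamma led with a median log2 ratio of −0.41 over the ages, on levels of 202, 21.7 and 30.6 in dilp 2-3,5 and 202, 30.8 and 28.7 in wDah. ATPsynD (−0.22), ATPsynB (−0.19), ATPsynbeta (−0.19), ATPsynCF6 (−0.13) and SdhC (−0.11) followed. ATPsynB, for example, was at 364, 67.6 and 81.3 in dilp 2-3,5 and at 373, 83.8 and 65.5 in wDah. SdhA was at 129, 11.4 and 15.7 in dilp 2-3,5 and at 121, 11.4 and 11.99 in wDah, and did not keep 1 direction. The fat body markers summed to 20561, 1954 and 2271 in dilp 2-3,5 brain and to 31247, 3565 and 2462 in wDah brain. The neuronal markers summed to 381, 63.2 and 98.7 in dilp 2-3,5 brain and to 305, 54.5 and 51.8 in wDah brain. All 5 of each list were detected in each group, and their part in the brain values was not tested.

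In gut the centred median was −0.14, −0.15 and −0.15 and the sum-scaled median 0.01, −0.04 and 0.27. ATPsyngamma was again the lowest of the genes that kept 1 direction after centring, with a median of −0.34 over the ages. Its gut levels were 264, 62.1 and 85.2 in dilp 2-3,5 and 256, 73.1 and 81.3 in wDah. ATPsynB (−0.23), ATPsynCF6 (−0.18), SdhC (−0.06) and ATPsynbeta (−0.05) were also below 0 at all 3 ages. SdhA had a higher level in dilp 2-3,5 gut at all 3 ages when scaled to the sum, 106, 20.7 and 32.9 against 94.5, 20.2 and 24.8 in wDah, but its centred values did not keep that direction. The 2 Malpighian tubule markers, both detected in each group, summed to 192, 111 and 188 in dilp 2-3,5 gut and to 169.7, 53.9 and 86.6 in wDah gut. The fat body markers, 4 of 5 detected, summed to 1391, 208 and 384 in dilp 2-3,5 gut and to 879, 104 and 118 in wDah gut. Their part in the gut values was not tested.

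In fat body the centred median was 0.29, −0.08 and −0.25 at days 10, 30 and 50 and the sum-scaled median −0.12, −0.33 and 0.08. ATPsynbeta alone kept 1 direction after centring, with a median of −0.03, on levels of 839, 229.7 and 313 in dilp 2-3,5 and 1138, 279 and 311 in wDah. SdhA was at 42.2, 6.37 and 9.28 in dilp 2-3,5 and at 55.2, 8.24 and 10.6 in wDah, below wDah at each age when scaled to the sum. Markers of other tissues also differed between these groups. The 6 ovary markers summed to 116, 8.64 and 145 in dilp 2-3,5 fat body and to 2028, 80.6 and 47.7 in wDah fat body, with 3 to 6 of 6 detected. The 6 gut markers summed to 62.5, 16.6 and 32.7 in dilp 2-3,5 and to 1848, 90.8 and 132 in wDah, again with 3 to 6 detected. Their part in the fat body values was not tested.

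**Figure D2:**
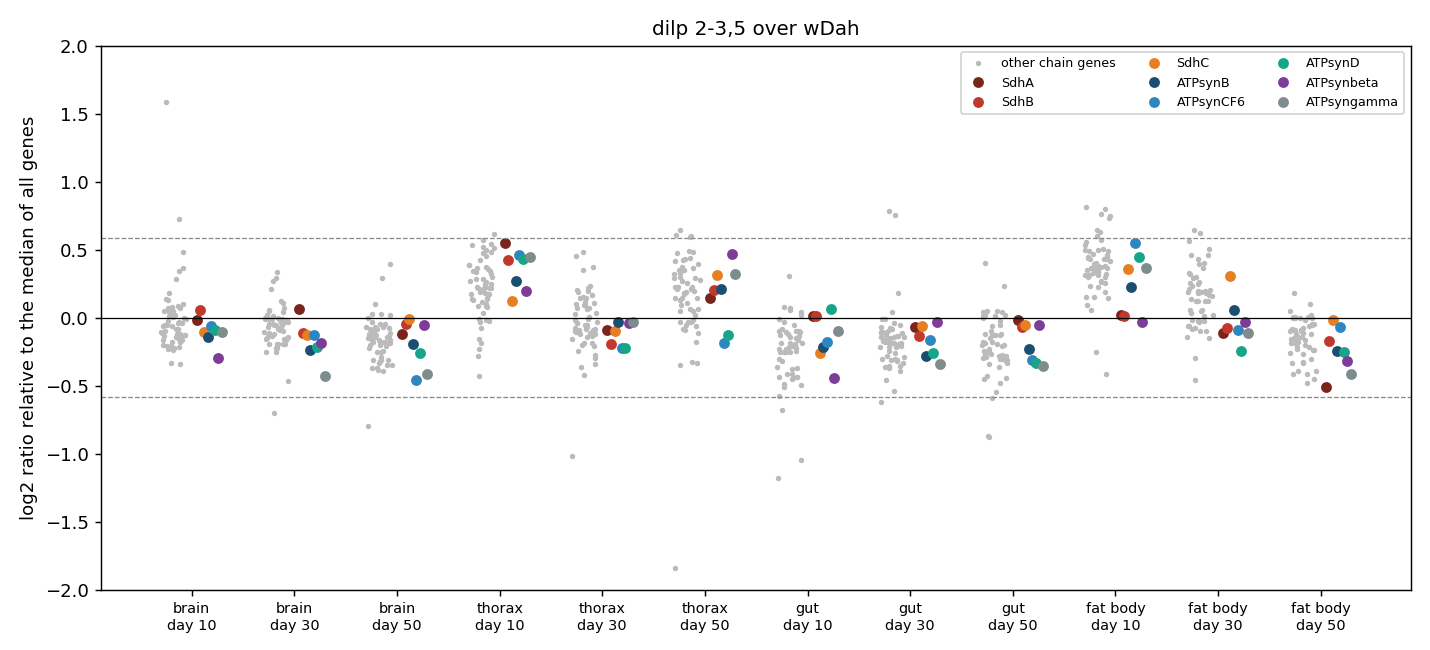
Centred log2 ratio of dilp 2-3,5 over wDah (vertical) for the 8 genes in each tissue at days 10, 30 and 50 (horizontal); coloured points are the 8 genes, grey points the other chain genes, and dashed lines 1.5-fold. All 96 coloured points lie between the lines, from −0.51 to 0.55.

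Among the other chain genes, 56 to 60 of which passed the minimum in each comparison, between 0 and 8 were at least 1.5-fold higher in dilp 2-3,5 and between 0 and 3 at least 1.5-fold lower, and no scaled limits were apart. The shares of all genes in these comparisons ran from 1.81 to 10.4% higher and from 5.20 to 11.3% lower. The 8 higher ones, of 57, belonged to fat body at day 10, where 10.4% of all genes were higher by that much. They were led by ND-B12 and ND-B16.6 at 0.82 and 0.80, and the median over the 57 genes was 0.38. ATPsynE, a small subunit of the membrane part of complex V, was lower in dilp 2-3,5 brain at day 30 and day 50 (−0.70 and −0.79) and in gut at day 50 (−0.87). With the limits as deposited, its brain values at day 50 were apart, 45.4 to 77.5 in dilp 2-3,5 against 78.2 to 132 in wDah. So were its gut values at day 50, 105 to 214 in dilp 2-3,5 against 217 to 359 in wDah, whereas scaled limits overlapped in both. The share of all genes apart was counted with scaled limits only. ND-AGGG, another complex I subunit gene, had no steady direction in gut, with centred log2 ratios of −1.05, 0.76 and −0.88 at days 10, 30 and 50.

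The change with age was read between day 50 and day 30 only. Of 64 values of the 8 genes, 3 passed 1.5-fold after centring, and the 3 were complex II genes of thorax that were lower at day 50. SdhA was at 73.9 at day 50 against 93.9 at day 30 in dilp 2-3,5 thorax (centred −0.63), and at 73.7 at day 50 against 106 at day 30 in wDah thorax (−0.87). SdhB was at 171 at day 50 against 248 at day 30 in wDah thorax (−0.88). In dilp 2-3,5 thorax SdhB stood at 178 at day 50 and 203 at day 30. SdhC in wDah thorax stood at 317 at day 50 and 360.4 at day 30.

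Over the 8 genes the centred median of day 50 over day 30 was −0.22 in dilp 2-3,5 thorax and −0.44 in wDah thorax, with sum-scaled medians of 0.06 and −0.10. The 1 of 8 genes past 1.5-fold in dilp 2-3,5 thorax stands beside 7.35% of all genes, and the 2 of 8 in wDah thorax beside 10.5%. After centring 6 genes were lower at day 50 in both genotypes in thorax. SdhA (mean of the genotypes −0.75), SdhB (−0.68), SdhC (−0.32) and ATPsynB (−0.31) led, with ATPsynD (−0.30) and ATPsynCF6 (−0.28) after them. Scaled to the sum, SdhA (−0.44) and SdhB (−0.37) kept this direction and ATPsynCF6 did not (0.03). Of the other 58 chain genes, 4 were at least 1.5-fold lower at day 50 in dilp 2-3,5 thorax and 11 in wDah thorax, and none was higher by that much; the share of all genes lower by that much ran from 2.89 to 7.72% over the age comparisons. ND-B8 was furthest below 0 in either genotype, at −3.49 in dilp 2-3,5 and −2.67 in wDah. SdhD, the second membrane anchor of complex II, was among the 11 at −0.69.

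Outside thorax no chosen gene passed 1.5-fold with age after centring. Scaled to the sum, 3 of 8 were at least 1.5-fold higher at day 50 in dilp 2-3,5 brain, 2 in dilp 2-3,5 gut and 4 in dilp 2-3,5 fat body, against 53.3%, 47.4% and 74.8% of all genes. The centred medians were −0.10 in dilp 2-3,5 brain and −0.01 in wDah brain, −0.11 in dilp 2-3,5 gut and −0.07 in wDah gut, and −0.21 in dilp 2-3,5 fat body and 0.09 in wDah fat body. The sum-scaled medians of these comparisons were 0.50, −0.02, 0.45, 0.18, 0.60 and 0.34 in the same order. The share of all genes past 1.5-fold was 6.38% in dilp 2-3,5 brain, 9.11% in wDah brain, 7.28% in dilp 2-3,5 gut, 5.67% in wDah gut, 14.5% in dilp 2-3,5 fat body and 7.50% in wDah fat body. In brain, ATPsynB (−0.34) and ATPsynbeta (−0.15) were lowest among the genes with 1 direction in both genotypes after centring, and ATPsynCF6 (0.26) and ATPsynD (0.25) were highest. In gut, SdhC (−0.28) and ATPsynbeta (−0.28) were lowest and SdhA (0.07) and SdhB (0.05) highest. In fat body, ATPsynbeta (−0.23) was the only one below 0, and SdhB (0.22) and ATPsynD (0.12) were highest. Limits were apart in 1 of the 64 comparisons of the 8 genes, against 4.51% of all genes. This was SdhB in dilp 2-3,5 brain, with scaled limits of 13.8 to 22.1 at day 50 against 8.22 to 13.3 at day 30. With the limits as deposited those overlapped, and SdhB in wDah thorax was apart instead, at 251 to 413 FPKM at day 50 against 430 to 822 FPKM at day 30. For limits as deposited the share of all genes was not counted.

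**Figure D3:**
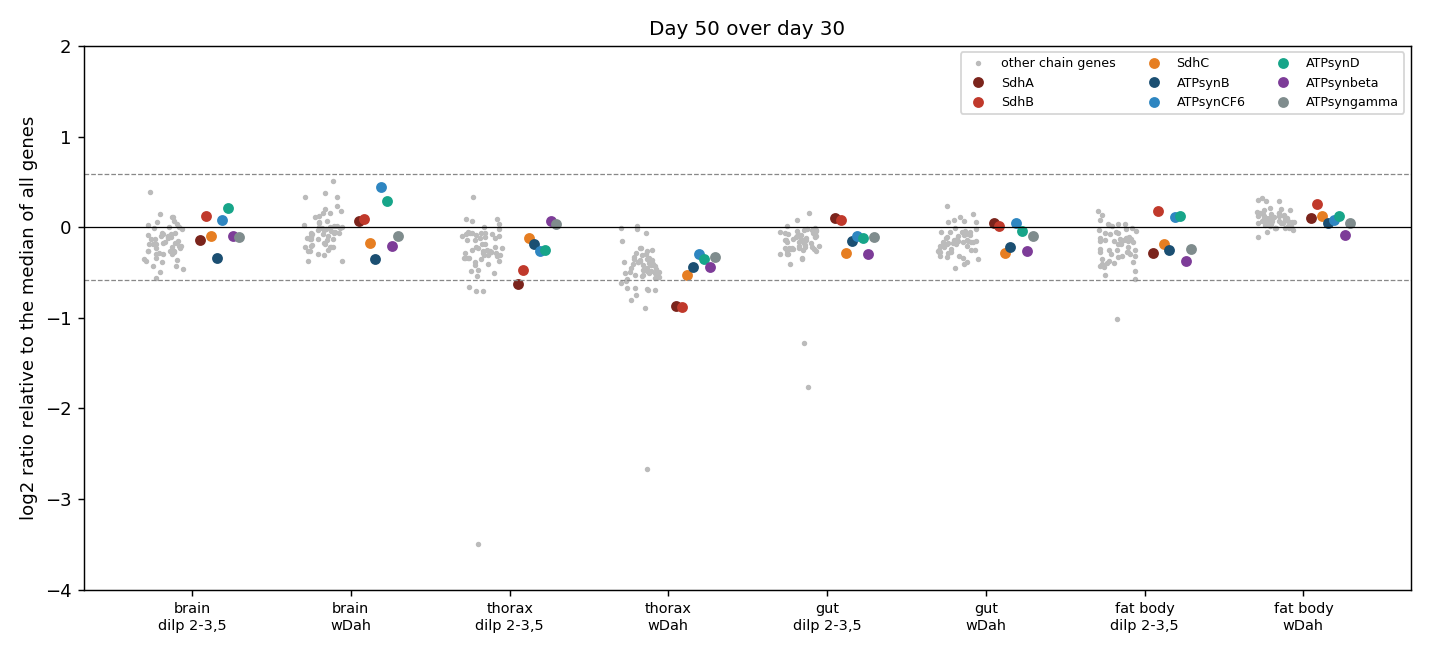
Centred log2 ratio of day 50 over day 30 (vertical) for the 8 genes in dilp 2-3,5 and wDah of each tissue (horizontal); coloured points are the 8 genes, grey points the other chain genes, and dashed lines 1.5-fold. The 3 coloured points below the lower line are SdhA in dilp 2-3,5 thorax (−0.63) and SdhA and SdhB in wDah thorax (−0.87 and −0.88).

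The table also splits a gene into transcripts, and the main transcript's share of 5 of the 8 genes separated the day 10 groups from the later ones without overlap, by a wide margin for 4 of them. The 2617-base transcript of SdhA made up 77.8 to 93.4% of the gene (median 86.1%) in the 8 groups of day 10 and 23.0 to 69.1% (median 46.1%) in the 16 groups of days 30 and 50. The 1080-base transcript of ATPsyngamma made up 91.5 to 96.4% at day 10 and 43.9 to 77.5% later. For ATPsynCF6 the 526-base transcript held 92.0 to 97.0% at day 10 and 57.5 to 84.2% later, and for ATPsynD the 694-base one 99.1 to 99.7% and 72.5 to 92.5%. The fifth was ATPsynbeta, with 98.5 to 99.1% at day 10 and 96.2 to 98.1% later. In each case longer transcripts took most of the rest: the 2750-base transcript of SdhA held 6.59 to 21.6% at day 10 and 20.2 to 73.5% later, and the 1166-base one of ATPsyngamma 3.52 to 8.39% and 20.4 to 53.7%. Because the day 10 samples were produced separately, age and batch cannot be told apart here. How large a share of all genes with several transcripts separated in this way was not counted, so the separation is not read as particular to these genes. SdhB and ATPsynB, with 1 transcript each, could not separate.

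Within the later ages, the SdhA shares also differed by tissue. The 2617-base transcript held 23.0 to 44.3% in the 4 brain groups of days 30 and 50, 23.5 to 38.6% in thorax, 47.8 to 62.8% in gut and 53.7 to 69.1% in fat body. The brain and thorax ranges overlapped each other and not those of gut and fat body. At day 10 the order was much the same on a smaller scale, with 77.8 to 81.0% in brain, 83.1 to 83.3% in thorax, 88.9 to 90.1% in gut and 89.9 to 93.4% in fat body, 2 groups each. Of the 8 genes, SdhB and ATPsynB had a single transcript, and SdhC and ATPsynbeta had 1 transcript with at least 96.2% of the gene in every group. By their nearest annotated transcripts, all transcripts of a gene carried the same coding exons except a 2026-base transcript of ATPsynbeta, which held at most 0.447% of that gene.

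**Figure D4:**
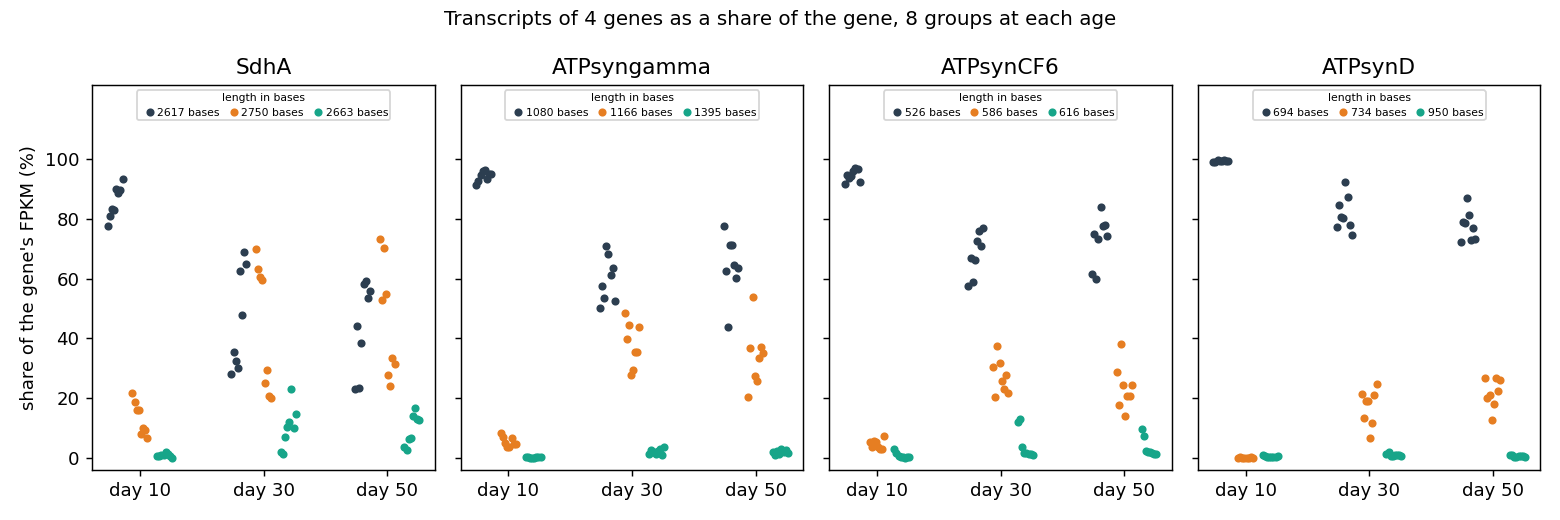
Share of each transcript in its gene's summed FPKM (vertical, percent) for SdhA, ATPsyngamma, ATPsynCF6 and ATPsynD at days 10, 30 and 50 (horizontal); each point is 1 of the 8 groups of an age, and colours are transcripts named by their length in bases. In each panel the transcript that leads at day 10 is at 77.8% or more there, and its later values lie below those of day 10.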

How the data were processed

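The members and gene lists were chosen with earlier results of these data known. The authors sequenced rRNA-depleted total RNA single-end from 3 biological replicates per group. Per the labels and the study's methods, reads were aligned to BDGP6 (Release 6) with HISAT2 2.0.4, transcripts were assembled with StringTie 1.3.0, and Cuffdiff 2.2.1 pooled the libraries of a group into the deposited FPKM value of each transcript, with a lower and an upper 95% limit. STAR 2.5.2b also stands in the submitters' processing notes. All 456 values of the 8 genes had the status OK. Counts per library and depth are not given in this table, so no counting interval was made, and each pooled value counts once. Columns of the authors' own comparisons (fold changes, p-values) in the deposited tables were not used. The 6 polysome libraries were not analysed here. In the authors' circRNA tables (1194 and 206 circRNAs), no host gene was one of the 87 chain genes.

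FPKM values were summed per gene, scaled to a sum of 1000000 per group and compared as log2 ratios with a pseudocount of 0.1 (which understates changes of low genes), for genes with a mean level of at least 1. The fold for a count was 1.5. Current symbols came from the annotation of Ensembl release 115, in which 33100 of 33570 transcripts were found, 99.5% of them at the same locus. Genes were named where dilp 2-3,5 differed in 1 direction at 3 ages, where day 50 did so in 2 genotypes, for the highest and lowest level in a complex, for the highest and lowest thorax ratios, and where a level was under 1 throughout. Lists fixed for the wider pathway were chain genes outside the name rule, mitochondrially encoded subunits, assembly factors, tricarboxylic acid cycle, regulators and mitochondrial genome maintenance, and membrane exchange. Marker lists covered neuron, muscle, gut, Malpighian tubule, fat body, ovary, haemocyte and testis. Alternatives were other scalings, pseudocounts, minimums and folds, the main transcript alone, and, added after seeing the data, the centred ratio, a sum without transcripts under 200 bases, the 87 genes, the thorax ratio in dilp 2-3,5 and unscaled limits. Scripts ran in Python 3.11.15 with pandas 2.3.3 and were tested on simulated data.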

Additional observations from a re-analysis of the deposited data

How the results depend on the processing

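Each comparison has 1 pooled value per group, so replicates could not be left out in turn, and FPKM keeps no depth. No paired analysis was possible because each group has 1 pooled value and no replicate columns. The median over the 8 genes was judged to move where it shifted by more than a typical half-width for 1 gene. This was the median over the 8 of the half-widths that the 95% limits of the main transcript give its log2 ratio, 0.41 to 1.02. It is not the error of a median over 8 genes, which was not estimated. That half-width is larger than most of the genotype and age medians, and centring removes any factor common to a group, so medians that moved by less say nothing of stability. Scaled to the sum, 6 of 279 alternative medians moved by more, all of them medians of thorax over other tissues. At day 10 the ratio in dilp 2-3,5 was 1.93, against 1.32 in wDah. At day 30 the median was 1.05 with FPKM as deposited and 1.03 with median-of-ratios scaling, against 1.92. At day 50 it was 0.62 with either of these and 1.01 with a sum without transcripts under 200 bases, against 1.62. Small medians changed sign with scaling: with FPKM as deposited, 6 of 12 genotype and 5 of 8 age medians had the other sign than when scaled to the sum. With the main transcript alone, 1 of 12 genotype and 2 of 8 age medians had the other sign after centring. So had 2 of 8 age medians with a minimum of 5, 1 of 8 age medians with a pseudocount of 1, and 1 of 12 genotype medians with the 87 genes. After centring, between genotypes 0 of the 96 values passed 1.5-fold and 0 passed 2-fold, between ages 3 and 0 of 64, and between tissues 20 and 16 of 24. Of all genes, 12.5% and 5.42% passed these folds between genotypes, 8.50% and 3.57% between ages, and 44.7% and 28.5% between tissues. A lower threshold, a log2 ratio of 0.32, gave 19, 13 and 23 in the same order, against 29.3%, 23.4% and 64.1% of all genes. Scaled to the sum, 5 genotype values (thorax at day 10), 9 age values and 23 tissue values were at least 1.5-fold higher and 0 lower. The 5 stand beside 13.98% of all genes. The 9 stand beside 53.3%, 47.4% and 74.8% of all genes in dilp 2-3,5 brain, gut and fat body. For the 23 tissue values no share of all genes was counted on this scale, so they are not read as a trait of the 8.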

Other observations

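Other gene groups of oxidative metabolism can be set beside the 8 genes as centred log2 ratios, and none of the following was tested. The 13 subunits encoded in the mitochondrial genome, which pair with the nuclear ones in complexes I, III, IV and V, had their highest genotype medians in fat body. There, 9 of 13 were at least 1.5-fold higher in dilp 2-3,5 at day 10 (median 0.66) and 10 of 13 at day 30 (median 0.76, with mt:ND6 lower at −0.59), and 3 of 13 at day 50 (median 0.20), against 10.4%, 7.21% and 6.37% of all genes. In gut the list was lower in dilp 2-3,5, with medians of −0.18, −0.58 and −0.40 and 0, 6 and 3 of 13 at least 1.5-fold lower at days 10, 30 and 50, against 5.81%, 5.89% and 6.72% of all genes, and 1 higher at day 50. In thorax its medians were −0.24, −0.30 and 0.34, with 0, 4 and 3 of 13 at least 1.5-fold higher (mt:ND6 at 1.97 at day 30) and 0 lower. Of all genes, 5.84%, 3.05% and 4.92% were higher by that much and 8.61%, 5.54% and 6.57% lower. In brain the medians of the list were −0.28, −0.16 and 0.05, with 0, 0 and 2 higher and 1, 3 and 0 lower. There, 3.67%, 1.81% and 3.16% of all genes were higher and 7.13%, 5.74% and 8.11% lower. At day 50 against day 30 the median of the list was below 0 in each tissue and genotype. It ran from −0.09 in dilp 2-3,5 thorax to −0.87 in dilp 2-3,5 fat body. In the latter, 10 of 13 were at least 1.5-fold lower and 1 higher, against 7.72% and 6.74% of all genes. In wDah thorax over the other tissues the list had medians of 0.83, 0.17 and 0.15 at days 10, 30 and 50. The ovary and gut markers given in the report also differed between the genotypes in fat body, and their part in the values of this list was not tested.

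The 9 chain genes that the name patterns miss include Cyt-c-p for cytochrome c and blw for the alpha subunit of ATP synthase. Of the 9, 8 were above the minimum, with thorax medians of 2.02, 1.67 and 1.07. At least 1.5-fold higher were 8, 7 and 6 of 8, against 22.9%, 22.3% and 20.01% of all genes. The genotype medians of this list lay between −0.26 (gut, day 30) and 0.45 (fat body, day 10). Its age medians lay between −0.51 (wDah thorax) and 0.11 (wDah fat body). The 11 tricarboxylic acid cycle genes had thorax medians of 1.16, 1.02 and 0.56, with Nc73EF, a subunit of oxoglutarate dehydrogenase, at 2.76 at day 30 and ScsbetaG at −0.72. In thorax at day 10, 3 of 11 were at least 1.5-fold higher in dilp 2-3,5 (median 0.44), against 5.84% of all genes. At day 50 against day 30 the median of this list was −0.35 in either genotype of thorax.

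Of 15 assembly factors, 12 were found. Their thorax medians were 1.01, 0.88 and 0.48, led at each age by Cox17, a copper chaperone for complex IV (2.97, 3.30 and 2.62), and genotype medians lay between −0.12 and 0.20. The 7 exchange genes had thorax medians of 1.05, 0.44 and 0.13, with Mpcp1, a mitochondrial phosphate carrier, at 5.81, 5.51 and 4.84 and its paralog Mpcp2 at −0.52 and −0.60 at days 30 and 50. The exchange list had genotype medians up to 0.45, in thorax at day 50. The 10 regulators and maintenance genes showed little tissue pattern as a list, with thorax medians of 0.05, 0.38 and 0.12 over 6 to 10 genes, and genotype medians between −0.29 (fat body, day 10) and 0.34 (fat body, day 50). Malpighian tubule markers summed to 53.9 to 192 in gut and to at most 77.5 elsewhere, and haemocyte markers to 36.2 to 131 in thorax and 0.54 to 5.60 in gut.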
